A study of Mus musculus with 6 samples.

Results

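The replication-independent histone variants are 9 mouse genes that were read out of a count table of 51733 gene symbols. They are H2afz and H2afv, which encode the H2A.Z proteins, H2afx for H2A.X, H2afy and H2afy2 for the macroH2A proteins, H3f3a and H3f3b, which both encode H3.3, and H1f0 and H1fx for the linker histones H1.0 and H1.X. They were chosen by name, as genes listed as polyadenylated, replication-independent variants. No measured value entered that rule, but earlier results of these data were known when the genes were chosen. All 9 were present in the files and all 9 passed the filter on low values.

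RNA was sequenced from Sox2-positive neural progenitor cells (NPCs) sorted by flow cytometry from the neural tubes of C57BL/6 mouse embryos at E13.5. The 3 wildtype libraries are called control A, B and C, and the 3 libraries labelled YBX1KO are called Ybx1-KO D, E and F. Per the study's methods the Ybx1-KO embryos carried the constitutive null allele Ybx1 tm1Ley on both chromosomes, the controls were siblings, and a Sox2-eGFP knock-in marked the sorted cells. The Sox2-eGFP allele came from a mixed B6 and 129S1 strain. The loss of Ybx1 was therefore in every tissue of the embryo and not only in NPCs. The sex of each embryo and any pooling of embryos are not given in the sources used here.

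Nucleosomes are built from core histones that are made in bulk during S phase from clustered genes, whose mRNAs end in a stem-loop without a poly(A) tail. Replication-independent variants are instead transcribed through the whole cell cycle from separate genes, usually with introns and poly(A) tails, and are placed in chromatin by dedicated chaperones and remodellers. H3.3 is deposited at active genes and at silent repeats, H2A.Z marks promoters and enhancers, macroH2A is enriched on silent chromatin, H2A.X is phosphorylated at DNA breaks, and H1.0 is known for its accumulation in differentiating cells. Ybx1 encodes YB-1, a cold-shock domain protein of mRNPs that was named for binding to the Y-box, an inverted CCAAT sequence. The comparison of Ybx1-KO with control asks how far the transcript levels of these variants differ in NPCs that lack Ybx1.

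None of the 9 variant genes passed the test, which asked for a fold change over 1.5 with an adjusted p under 0.05, and neither did any other gene, so that the share called was 0% (0 of 21104 genes). That count depended on the method and on single libraries, since 2367 genes had an unadjusted p below 0.05 and DESeq2 called 212, edgeR without a filter on low values 193 and edgeR without Ybx1-KO E 416. H3f3a was the one variant whose control and Ybx1-KO libraries did not overlap, as was so in the same direction for 8.17% of all tested genes, and it averaged 610 ± 168 CPM (counts scaled to a common library size, SD, n = 3) in A to C and 286 ± 104 CPM in D to F. H3f3b, which encodes the same protein, averaged 469 ± 71.2 CPM in control and 397 ± 255 CPM in Ybx1-KO libraries (SD, n = 3 each). Set beside the 70 replication-dependent histone genes, the 9 variant genes held 67.8% ± 7.40 of all histone counts in control and 42.5% ± 1.72 in Ybx1-KO libraries (SD, n = 3 each). Read pairs that aligned to several places are not in these counts.

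The libraries differed in ways that touch these values. The study's methods name alternative sequencer models, and which model ran each library is not given in the sources used here. Counts on genes numbered between 20841990 and 23883542 in the controls and between 4743279 and 13321952 in the Ybx1-KO libraries, and a floor of 3 counts equalled 0.126 to 0.632 CPM. Ybx1-KO F was the shallowest and stood apart, with counts on 39553 genes, 59.5% of its read pairs outside genes and 4258 CPM on 1500 chemosensory receptor genes, against at most 91.2 CPM in the other 5 libraries. Ybx1 itself stood at 240, 534 and 308 CPM in A, B and C against 127, 55.6 and 9.70 CPM in D, E and F. Each Ybx1-KO library lay under the lowest control, with a log2 fold change of -2.49 (SE 0.675, adjusted p = 0.300 by edgeR), and which exons the allele removes was not checked. The progenitor marker Sox2 was counted in all 6 libraries, at 17.6 to 50.8 CPM. The median log2 fold change of all tested genes was 0.31, and 61.3% of them had a value above 0, so the variants are also given against that median. Both values rest in part on the filter, which 7168 of the 21104 genes passed through Ybx1-KO alone and 943 through control alone. The median was 0.075 for genes with a CPM above 1 in 3 libraries and -0.066 without Ybx1-KO F. The titles of A and B begin with the same number, as do those of D and E, and nothing in the labels says that all libraries came from separate litters. The p-values then measure only the spread between these libraries.

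Features of sequence are shown first, namely the 3′ stem-loop and the promoter. Of the 9 variant genes, with 32 transcripts searched, H2afx alone held a match to the histone stem-loop motif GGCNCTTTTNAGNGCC. The match lies at positions 547 to 562 of its 1384-base transcript and is shown in capitals because it sets H2afx apart from the other variants. H2A.X is known to have both a stem-loop and a polyadenylated form of its mRNA.
H2afx stem-loop: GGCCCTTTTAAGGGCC
The same motif was found in 42 of 70 replication-dependent histone genes and in 47 of 55341 genes searched (0.0849%). By this feature of sequence H2afx lies with the replication-dependent histones and the other 8 variants do not, though counts per gene cannot show which form of its mRNA was present.

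The promoters of the H3.3 and H2A.Z gene pairs are shown because each pair encodes the same or nearly the same protein from genes on different chromosomes, and because the Y-box is an inverted CCAAT. They are the 250 bases before the RefSeq start on GRCm38.p6, written 5′ to 3′ on the gene's own strand, with CCAAT and its reverse complement ATTGG in capitals. They lie at chr1:180813606-180813855 for H3f3a and chr11:116024505-116024754 for H3f3b, both on the minus strand, at chr3:137864237-137864486 on the plus strand for H2afz, and at chr11:6444444-6444693 on the minus strand for H2afv.
H3f3a: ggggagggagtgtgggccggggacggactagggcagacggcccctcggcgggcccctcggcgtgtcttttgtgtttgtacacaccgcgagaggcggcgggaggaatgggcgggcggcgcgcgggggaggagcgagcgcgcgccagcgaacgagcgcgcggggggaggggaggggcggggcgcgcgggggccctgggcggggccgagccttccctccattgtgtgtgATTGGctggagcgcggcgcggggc
H3f3b: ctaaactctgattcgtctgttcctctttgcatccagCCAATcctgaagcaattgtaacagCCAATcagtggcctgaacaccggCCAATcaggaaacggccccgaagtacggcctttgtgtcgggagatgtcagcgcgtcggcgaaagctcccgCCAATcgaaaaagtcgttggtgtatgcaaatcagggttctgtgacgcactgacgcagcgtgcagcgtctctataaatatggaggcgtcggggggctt
H2afz: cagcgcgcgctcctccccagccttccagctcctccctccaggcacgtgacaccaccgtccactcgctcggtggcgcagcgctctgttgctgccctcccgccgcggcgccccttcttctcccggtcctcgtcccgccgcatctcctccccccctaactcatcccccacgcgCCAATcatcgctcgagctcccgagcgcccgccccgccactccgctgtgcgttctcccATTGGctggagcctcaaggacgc
H2afv: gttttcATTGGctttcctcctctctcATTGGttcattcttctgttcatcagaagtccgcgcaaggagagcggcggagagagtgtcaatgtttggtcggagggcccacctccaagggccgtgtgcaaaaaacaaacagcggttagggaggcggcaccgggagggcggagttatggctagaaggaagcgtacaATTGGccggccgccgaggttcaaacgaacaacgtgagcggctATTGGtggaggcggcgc
The H3f3b promoter held 4 matches and H2afv also 4, H2afz held 2 and H3f3a 1. Of all 32851 promoters of this length, 33.8% held at least 1 match on either strand, 10.1% at least 2 and 0.840% at least 4. H3f3b also held TATAAA, as did 7.59% of all promoters on the gene's strand. The promoters of H2afy, H2afy2, H1f0 and H1fx held no match, and that of H2afx was not used here.

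**Figure D1:**
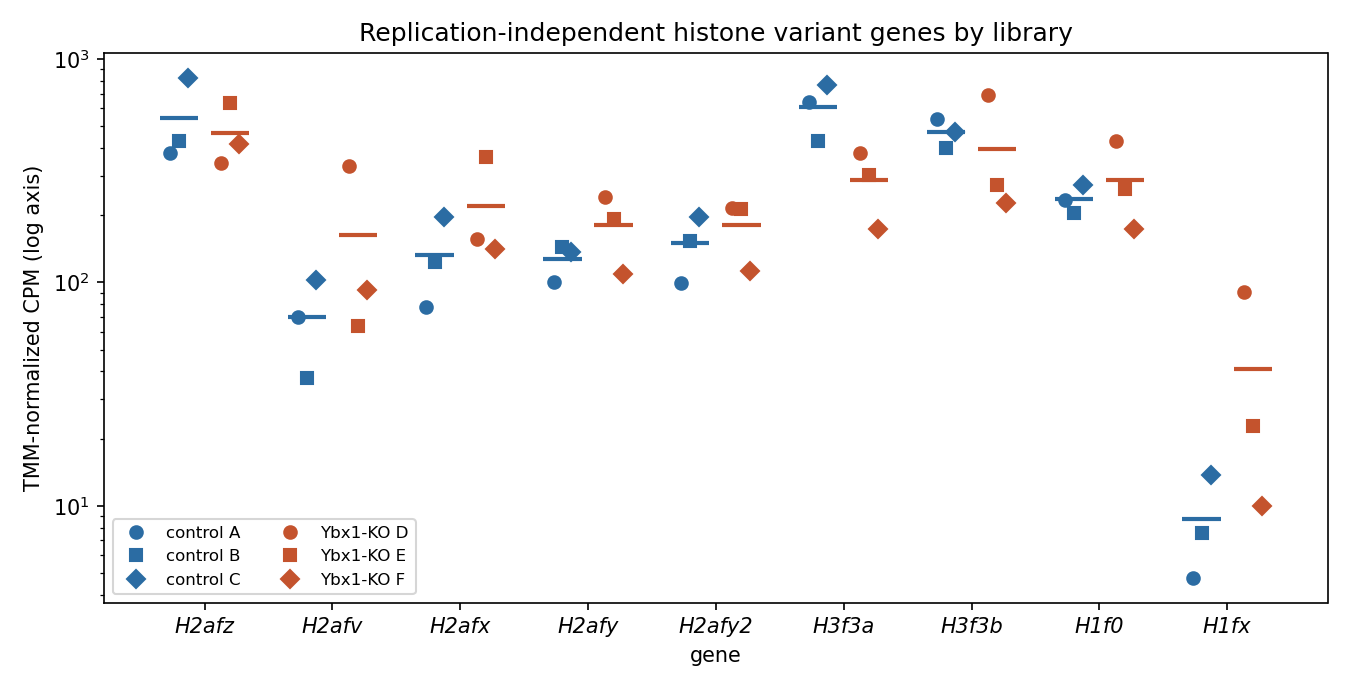
Level of each of the 9 variant genes in each library, as CPM on a log axis, scaled by TMM (trimmed mean of M values), with controls in blue, Ybx1-KO libraries in orange and a bar at each group's mean. H3f3a is the gene whose groups do not overlap, with 428 to 761 CPM in control and 174 to 381 CPM in Ybx1-KO libraries.

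H3f3a, the first of the H3.3 genes, lies at chr1:180800832-180813943 on the minus strand of GRCm38 and has 3504 exonic bases. Its level was 641, 428 and 761 CPM in A, B and C against 381, 303 and 174 CPM in D, E and F. All values of D to F were under all values of A to C. The log2 fold change was -1.09 (SE 0.488), which did not pass the test (adjusted p = 0.442, edgeR with Benjamini-Hochberg adjustment), and the exact permutation test gave p = 0.1, the smallest that 3 against 3 libraries allow. In bulk RNA, fewer cells of a type and less RNA per cell cannot be told apart. Relative to the median gene the log2 difference was -1.40, and it lay between -1.87 and -0.79 over all settings tried. Leaving out any 1 library moved the log2 fold change only between -1.35 and -0.86.

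H3f3b lies at chr11:116021912-116027962 on the minus strand and has 2976 exonic bases. Its level was 540, 397 and 469 CPM in A, B and C against 690, 272 and 228 CPM in D, E and F. Ybx1-KO D lay above all controls while E and F lay below all of them. The log2 fold change was -0.24 (SE 0.509, adjusted p = 0.835 by edgeR), it was -0.91 without D and 0.026 without F. For sequences nearly identical to H3f3a, 3 H3f3a-like genes together held 0.389% to 3.79% of the H3f3a count in any library. Read pairs that aligned to several places were not counted on any gene, so these counts cannot show how many were lost. Such pairs made 20.1%, 24.1% and 29.0% of all read pairs in A, B and C. In D, E and F they made 32.2%, 35.6% and 21.5%, and their part in the H3f3a values was not tested.

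Among the H2A variants, H2afz had the highest mean level per exon length in both groups, though H2afv stood above it in Ybx1-KO D. It lies at chr3:137864487-137866922 on the plus strand with 1776 exonic bases. Its level was 379, 431 and 822 CPM in A, B and C against 341, 638 and 415 CPM in D, E and F, and these ranges overlapped. The log2 fold change was -0.23 (SE 0.498, adjusted p = 0.843 by edgeR), and it turned to 0.20 without control C.

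H2afv, the second H2A.Z gene, lies at chr11:6427229-6444443 on the minus strand with 1633 exonic bases. Its level was 70.2, 37.2 and 102 CPM in A, B and C against 331, 63.9 and 92.3 CPM in D, E and F. Only Ybx1-KO D stood above the control range. Its log2 fold change was 1.22 (SE 0.565), whose unadjusted p was 0.0462 and adjusted p 0.442 by edgeR, and without D it was 0.16.

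H2afx, at chr9:44334694-44336077 on the plus strand, is a gene with 1384 exonic bases. Its level was 77.6, 123 and 196 CPM in A, B and C against 156, 364 and 141 CPM in D, E and F. Ybx1-KO E was the highest and the groups overlapped. For H2afx the log2 fold change was 0.74 (SE 0.489, adjusted p = 0.496 by edgeR), and without E it was 0.17.

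The macroH2A genes also had overlapping groups. H2afy, at chr13:56073619-56136361 on the minus strand with 6809 exonic bases, stood at 101, 143 and 137 CPM in A, B and C against 242, 191 and 109 CPM in D, E and F. Its log2 fold change was 0.51 (SE 0.425, adjusted p = 0.574 by edgeR). H2afy2, at chr10:61738665-61784147 on the minus strand with 2175 exonic bases, stood at 98.9, 154 and 196 CPM in A, B and C against 215, 214 and 112 CPM in D, E and F. Its log2 fold change was 0.27 (SE 0.437, adjusted p = 0.780 by edgeR). With 1 library left out, H2afy ran from 0.24 (without D) to 0.75 (without F) and H2afy2 from 0.039 (without A) to 0.51 (without C). In both genes D and E lay above all controls and F lay within their range.

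Of the linker histones, H1f0 lies at chr15:79028450-79030504 on the plus strand with 2055 exonic bases. Its level was 235, 205 and 272 CPM in A, B and C against 429, 262 and 173 CPM in D, E and F, with D above, E within and F below the control range. The log2 fold change was 0.28 (SE 0.453, adjusted p = 0.780 by edgeR), and it was -0.12 without D. H1fx lies at chr6:87980421-87981637 on the minus strand with 1217 exonic bases. It had the lowest CPM of the 9 genes in every library, 4.77, 7.58 and 13.7 CPM in A, B and C against 90.3, 22.7 and 9.99 CPM in D, E and F. D and E lay above all controls and F within their range. H1fx had a log2 fold change of 2.24 (SE 0.644) whose unadjusted p was 0.00298 and adjusted p 0.349 by edgeR. It was 0.91 without D, and H1fx passed the test without E, without F or without a filter on low values, with adjusted p-values that ran from 0.0078 to 0.786 over the edgeR, limma-voom and DESeq2 alternatives. The counts on its opposite-strand neighbour, given next, bear directly on these values.

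H1fx shares 213 exonic bases with Gm5577, an antisense gene on the opposite strand. H1fx held 99, 161 and 269 counts in A, B and C against 792, 217 and 70 in D, E and F, while Gm5577 held 1638, 2831 and 2989 and then 262, 1084 and 207. H1fx thus took 5.70%, 5.38% and 8.26% of the joint counts in A, B and C against 75.1%, 16.7% and 25.3% in D, E and F. Summed, H1fx and Gm5577 stood at 83.8, 141 and 167 CPM in A, B and C against 120, 136 and 39.5 CPM in D, E and F. The groups then overlapped (exact permutation p = 0.5), and the log2 fold change of the sum was -0.40, opposite to that of H1fx alone.

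H2afx and Gm44335, a miRNA gene that lies wholly within the H2afx exon on the opposite strand and shares 141 bases with it, were split differently again. H2afx took 68.6%, 68.4% and 66.1% of the joint counts in A, B and C against 89.5%, 63.5% and 69.8% in D, E and F. With the partner added, the log2 fold change of H2afx was 0.69 in place of 0.74. H3f3a shares 638 exonic bases with Gm17275, a lincRNA gene, and took 56.3% to 59.4% of the joint counts in the controls and 60.9% to 62.1% in the Ybx1-KO libraries. The sum of H3f3a and Gm17275 was still below every control in every Ybx1-KO library, with a log2 fold change of -1.16 and an exact permutation p of 0.1. H2afy2 shares 233 exonic bases with Aifm2 and took 64.5% to 71.5% of the joint counts in the 6 libraries, and its log2 fold change with the partner was 0.30.

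The library kit keeps the strand, and the strand setting of the counting is not given in the sources used here. Single-exon genes of at least 100 bases nested in an exon of a protein-coding gene with over 5000 counts show how the counts fell, H2afx and its partner left aside. All 15 nested genes on the opposite strand held counts, while 43 of 45 on the same strand held none in any library. Per base, the opposite-strand genes held a median of 0.443 (control C) to 1.09 (control B) times the counts of their hosts. Ybx1-KO D stood at 0.467. As a share of host counts they held 4.65% in Ybx1-KO D and 5.78% to 7.39% in the other 5 libraries. Reads from H1fx, H2afx or H3f3a and from their antisense partners therefore cannot be told apart in these counts. The lowest library was D by the share of host counts but control C by the per-base median. The part of strand in the H1fx level of D was not tested.

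**Figure D2:**
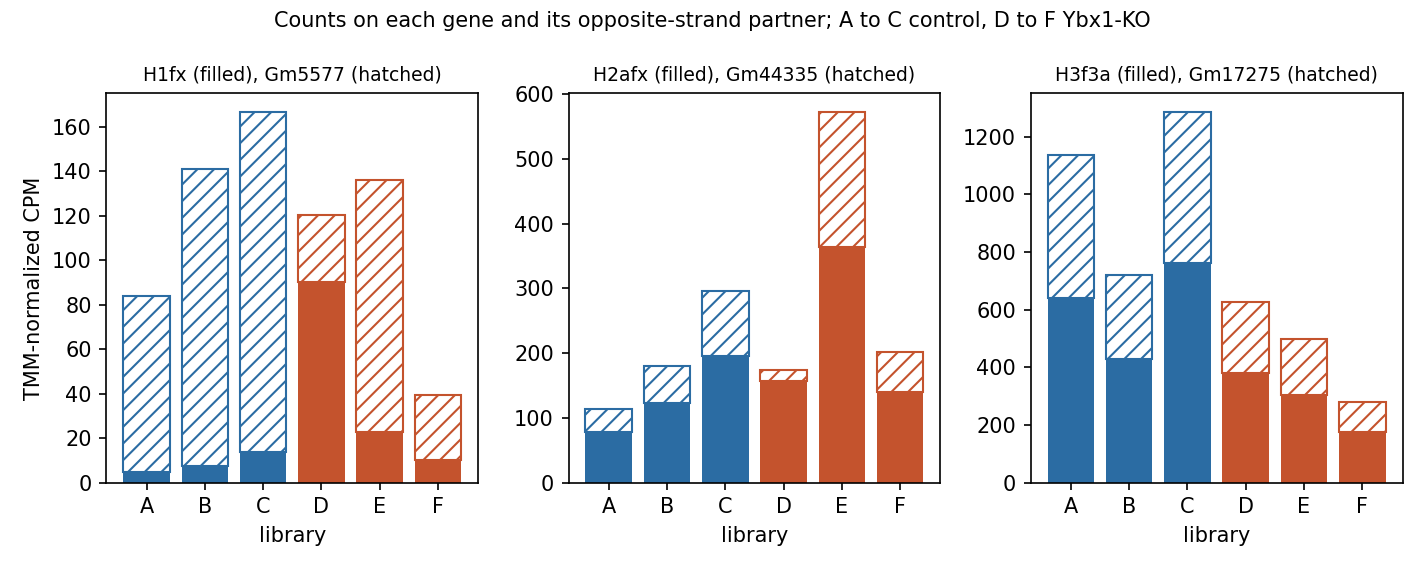
Counts of H1fx, H2afx and H3f3a (filled) and of the opposite-strand gene that overlaps each (hatched), stacked as TMM-normalized CPM for each library, with controls in blue and Ybx1-KO libraries in orange. The filled part of H1fx is 5.38% to 8.26% of the stack in the controls and 75.1% in Ybx1-KO D, while that of H3f3a stays between 56.3% and 62.1% in all 6 libraries.

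Per kilobase of exon (FPKM, with counts on genes as the library size), the controls ranked the variants from H2afz at 282 ± 119 FPKM through H3f3a at 163 ± 47.2 and H3f3b at 147 ± 31.1 to H1f0 at 107 ± 16.4 (SD, n = 3). Below them came H2afx at 87.7 ± 37.0, H2afy2 at 63.2 ± 18.1, H2afv at 39.9 ± 18.4, H2afy at 17.2 ± 2.20 and H1fx at 6.56 ± 3.29 FPKM (SD, n = 3). Library values of neighbours in this order overlapped, apart from those of H2afz and H3f3a, H2afv and H2afy, and H2afy and H1fx. In the Ybx1-KO libraries H2afz again led by its mean, at 267 ± 73.7 FPKM, and H2afx followed at 152 ± 36.1 FPKM without overlap (SD, n = 3). In Ybx1-KO D, however, H3f3b at 240, H1f0 at 216 and H2afv at 210 FPKM stood above H2afz at 198 FPKM. From H2afx down every pair of neighbours overlapped, through H1f0 at 144 ± 64.2, H3f3b at 139 ± 90.0, H2afv at 107 ± 93.0, H2afy2 at 83.0 ± 16.8, H3f3a at 82.6 ± 26.3, H1fx at 34.1 ± 36.9 and H2afy at 26.9 ± 8.73 FPKM (SD, n = 3). H3f3a was the second of the 9 in control and the seventh in Ybx1-KO libraries.

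The variants varied together only in part. Ybx1-KO D held the highest CPM of all 6 libraries for 6 of the 9 genes, and Ybx1-KO F the lowest of the Ybx1-KO libraries for 7 of them. Across all 9, 6 had a log2 fold change above 0 and 3 below, with a median of 0.28 against 0.31 for all tested genes. Of the 9, 2 had an unadjusted p below 0.05 and a higher level (H2afv and H1fx), as did 6.96% of all tested genes, and 1 had a lower level (H3f3a), as did 4.26%. No member had every Ybx1-KO library above every control, which 4.98% of all tested genes had. Against the median gene, 4 of the 9 lay above it, and this number ran from 2 to 7 with other scalings, filters and left-out libraries. Relative to that median H3f3a and H2afz stayed below 0 in each of these settings, H1fx stayed above 0 unless summed with Gm5577, and the sign of the other 6 changed in at least 1 of them.

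**Figure D3:**
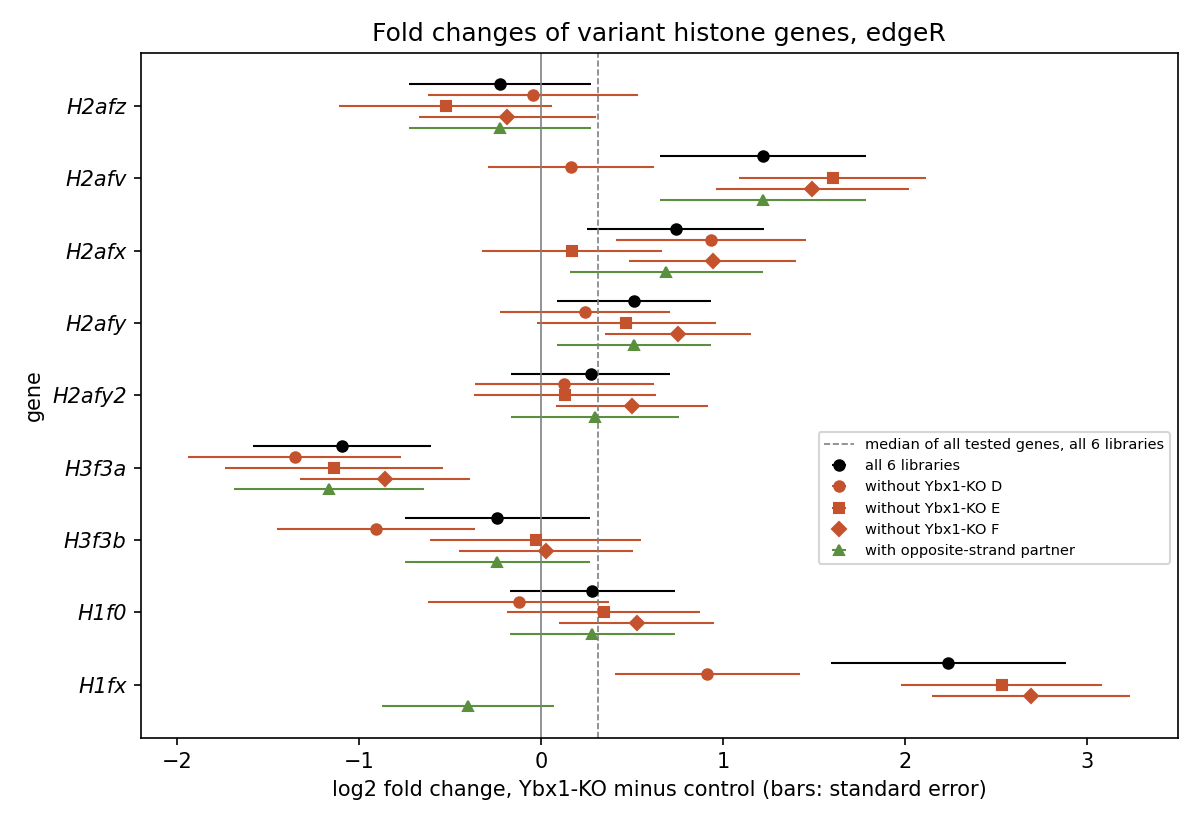
Log2 fold change of each variant gene, Ybx1-KO minus control, with its standard error, for all 6 libraries (black), without each Ybx1-KO library in turn (orange) and with the counts of opposite-strand partners added (green). The dashed line is the median of all tested genes at 0.31, H3f3a stays below 0 in each fit shown, and H1fx is at 2.24 alone and at -0.40 with its partner.

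Ratios within a library do not depend on the scaling between libraries, so the balance within 4 paralogue pairs was compared next. The count ratio of H3f3a to H3f3b was 1.19, 1.08 and 1.62 in A, B and C against 0.552, 1.11 and 0.765 in D, E and F. Per exon length, H3f3a made 52.0% ± 5.30 of the counts of the H3.3 pair in control and 40.0% ± 8.38 in Ybx1-KO libraries (SD, n = 3 each). Exon length here is the union over all transcripts of a gene, so this is not a share of transcripts. The log2 ratios differed by -0.71 (exact permutation p = 0.2, adjusted over the 4 pairs p = 0.4). D and F lay below all controls and E lay between controls B and A. The difference ran from -0.97 (without E) to -0.47 (without D) when a library was left out, and was -0.79 with the counts of Gm17275 added to H3f3a.

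H2afz outnumbered H2afv by 5.40, 11.6 and 8.04 to 1 in the controls and by 9.99 and 4.49 to 1 in Ybx1-KO E and F, but by 1.03 to 1 in D. The log2 ratios differed by -1.15 (exact permutation p = 0.4, adjusted p = 0.5), by -0.25 without D and by -1.89 without E. The ratio of H2afy to H2afy2 was 0.702 to 1.02 in control and 0.894 to 1.13 in Ybx1-KO libraries, a log2 difference of 0.19 (exact permutation p = 0.5, adjusted p = 0.5) that fell to 0.029 without control C. H1f0 exceeded H1fx 49.1, 27.1 and 19.8 times in the controls and 4.75, 11.6 and 17.4 times in the Ybx1-KO libraries, without overlap (log2 difference -1.60, exact permutation p = 0.1, adjusted p = 0.4). With the counts of Gm5577 added to H1fx the ratio was 2.80, 1.46 and 1.63 in A, B and C against 3.57, 1.93 and 4.39 in D, E and F. The groups then overlapped and the direction turned, with a log2 difference of 0.73 (exact permutation p = 0.2).

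**Figure D4:**
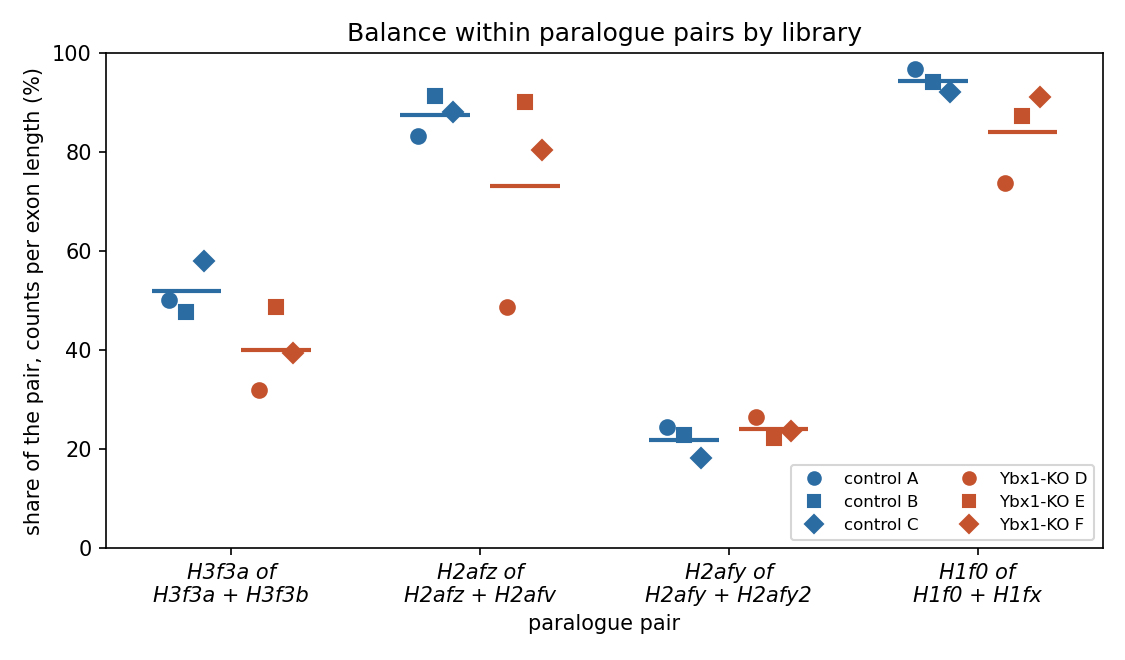
Share of the first-named gene in each paralogue pair, from counts per exon length in percent, for each library, with controls in blue, Ybx1-KO libraries in orange and bars at the group means. H3f3a makes 47.8% to 57.9% of its pair in control and 31.9% to 48.6% in Ybx1-KO libraries, and H2afz falls to 48.6% in Ybx1-KO D only.

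Because the libraries were made from total RNA, the non-polyadenylated replication-dependent histones were counted beside the variants. The summed level of the 9 variants was 2146, 1927 and 2968 CPM in A, B and C against 2874, 2331 and 1454 CPM in D, E and F, a log2 ratio of -0.11 (exact permutation p = 0.9). The summed level of the 70 replication-dependent genes was 704, 922 and 1937 CPM and then 3618, 3375 and 1990 CPM, a log2 ratio of 1.42 (exact permutation p = 0.1). A large part of these sums came from Hist1h4d alone, at 134, 247 and 668 CPM in A, B and C against 1279, 1229 and 736 CPM in D, E and F. Ybx1-KO F exceeded control C by less in the sum than in Hist1h4d, so the separation of the summed groups rests on this gene. Of 65 replication-dependent genes tested, 63 had a log2 fold change above 0, as had 61.3% of all tested genes, and none was called. An unadjusted p below 0.05 with a higher level was found for 29, and for 6.96% of all tested genes. The median log2 fold change of the 65 was 1.46. Genes that passed the FPKM filter through Ybx1-KO alone lean upwards by that filter, such as Hist1h2aa with a mean of 0.113 FPKM in control and 1.08 in Ybx1-KO.

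The variants' share of all histone counts was 75.3%, 67.6% and 60.5% in A, B and C against 44.3%, 40.9% and 42.2% in D, E and F. The groups did not overlap. The log2 ratio of variant to replication-dependent counts differed by -1.54 between the groups (exact permutation p = 0.1, the smallest possible), and by -1.78 to -1.28 when any 1 library was left out. As a share of all counts on genes the variants did not separate the groups, at 0.214%, 0.171% and 0.269% in A, B and C against 0.297%, 0.168% and 0.215% in D, E and F. The 20 proliferation markers summed to 1129 to 1680 CPM in control and 1496 to 1953 CPM in Ybx1-KO libraries (exact permutation p = 0.3), and their part in the histone share was not tested. Read pairs that aligned to several places were counted on no gene, the replication-dependent histones included. Such pairs made 20.1% to 29.0% of all read pairs in the controls and 21.5% to 35.6% in the Ybx1-KO libraries. Their part in the histone share was not tested either.

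**Figure D5:**
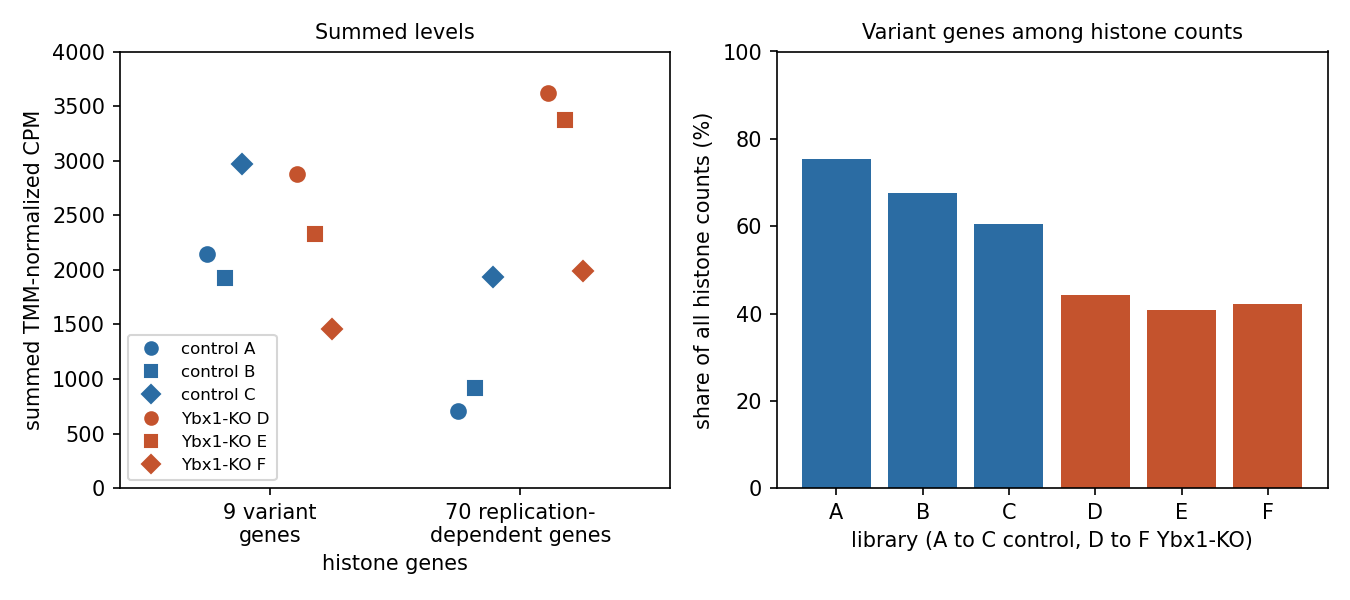
Left, summed TMM-normalized CPM of the 9 variant and the 70 replication-dependent histone genes in each library. Right, the share of all histone counts that fell on the 9 variants, in percent, at 60.5% to 75.3% in the controls and 40.9% to 44.3% in the Ybx1-KO libraries.

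The proteins that place the variants in chromatin were read out as lists. Of 9 genes for the deposition of H3.3, which hold the HIRA complex and the DAXX and ATRX pair, 4 were higher and 5 lower, none was called, and the median log2 fold change was -0.08. Asf1a, a chaperone that passes H3 and H4 to HIRA, was the gene of this list with an unadjusted p below 0.05. It stood at 74.2, 60.9 and 84.4 CPM in A, B and C against 49.6, 42.4 and 36.0 CPM in D, E and F (log2 fold change -0.78, SE 0.366, adjusted p = 0.443 by edgeR). The groups did not overlap, as was so in this direction for 8.17% of all tested genes. Among the 128 genes of the lists and variants compared, Asf1a was the one whose pattern over the 6 libraries was most like that of H3f3a. That likeness is a description only, since both genes were lower in every Ybx1-KO library than in any control.

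Of 15 genes of the H2A.Z exchange machinery, 6 were higher and 9 lower, none was called, and the median was -0.12. Dmap1, a subunit of the SRCAP and TIP60 complexes, stood at 27.6, 25.1 and 41.0 CPM in A, B and C against 15.4, 13.0 and 14.1 CPM in D, E and F (log2 fold change -1.14, adjusted p = 0.409 by edgeR). Actr6, a SRCAP subunit that takes part in H2A.Z loading, stood at 13.8, 14.2 and 20.3 CPM and then at 8.09, 4.38 and 7.99 CPM (log2 fold change -1.24, adjusted p = 0.436 by edgeR). In neither gene did the groups overlap, as was so in this direction for 3 of the 15 genes and for 8.17% of all tested genes.

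Of 13 general histone chaperones 8 were higher and 5 lower, none was called, and the median was 0.32. Chaf1a, the large subunit of the replication-coupled chaperone CAF-1, stood at 10.9, 16.7 and 14.6 CPM in A, B and C against 26.0, 30.5 and 23.4 CPM in D, E and F (log2 fold change 0.92, adjusted p = 0.443 by edgeR). Of 10 genes of H2A.X signalling, 3 were higher and 7 lower with a median of -0.10, and none had an unadjusted p below 0.05. The smallest belonged to Rnf8, a ubiquitin ligase recruited to marked breaks, at 0.0717 for a log2 fold change of 0.83.

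Of 10 other variant genes, 4 passed the filter on low values. Cenpa, the H3 variant of centromeres, stood at 22.8, 32.9 and 33.2 CPM in A, B and C against 65.2, 54.5 and 68.5 CPM in D, E and F. The groups did not overlap, as was so in this direction for 4.98% of all tested genes, and the log2 fold change was 1.08 (SE 0.366, adjusted p = 0.405 by edgeR). H2afj had a log2 fold change of 0.47 and H3f3c one of -0.98, and H2afb1 was counted in Ybx1-KO F alone, with 6 counts.

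The pattern of each variant over the 6 libraries was set against 128 genes, the other lists and the other variants, by Pearson's r of log2 CPM, given as a description because the 6 libraries share depth and scaling across genes. The gene most like H3f3a was Asf1a (r = 0.98), that most like H3f3b was Hba-a1 (r = 0.98), and that most like H2afz was Daxx (r = 0.89). H2afv was most like Cdk1 (r = 0.93), H2afx most like Eya3 (r = 0.92), H2afy2 most like Syp (r = 0.96) and H1f0 most like Hes1 (r = 0.93). H2afy and H1fx were most like each other (r = 0.92). The H3.3 genes had an r of 0.71 with each other and the H2A.Z genes one of -0.26.

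Markers of other cell types were read in the same libraries. Of 8 mesenchyme markers all had a log2 fold change below 0 and none was called. An unadjusted p below 0.05 was found for 5, and with a lower level for 4.26% of all tested genes. The sum of the 8 was 169 to 931 CPM in control, highest in A, and 94.3 to 153 CPM in Ybx1-KO libraries. Dcn, Lum and Col1a1, which encode matrix proteins, had log2 fold changes of -3.43, -2.75 and -2.00. Erythroid markers summed to 528 to 1235 CPM in control and 215 to 1252 CPM in Ybx1-KO libraries, with 5 of 10 higher. The adult globins Hbb-bs and Hbb-bt were at -4.68 and -3.25, with overlapping groups. The embryonic globins Hbb-bh1, Hbb-y and Hba-x were at 2.21, 0.32 and 0.26. Hbb-bs stood at 606, 16.4 and 192 CPM in A, B and C against 20.4, 6.37 and 5.00 CPM in D, E and F. Neuron markers summed to 3793 to 6709 CPM and 2251 to 5471 CPM, with 5 of 15 higher, Snap25 at -1.28 and Nefm at 1.51. Progenitor markers summed to 1774 to 1928 CPM and 1389 to 2366 CPM, with 8 of 12 higher, Slc1a3 at -1.78, Nes at 1.43 and Hes5 at 1.05. Of 20 proliferation markers 19 were higher, as were 61.3% of all tested genes, and none was called, with Aurka at 1.35, Birc5 at 1.32 and Mcm3 at 1.04. Endothelial markers summed to 15.7 to 48.9 CPM and microglia markers to 3.53 to 40.5 CPM over the 6 libraries. Of 4 endothelial markers tested 2 were higher, with Cdh5 at -1.08 and Egfl7 at 1.20. Of 3 microglia markers tested 1 was higher, with Tyrobp at -1.59 and C1qa at 0.18. The part of these cell types in the level of any variant was not tested.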

How the data were processed

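RNA-seq of sorted NPCs was compared between 3 control and 3 Ybx1-KO libraries. The authors counted read pairs on genes with HTSeq 0.6.1p1 and deposited raw counts per gene symbol, without normalization or pooling. The submitters' processing notes also name CASAVA, mm10 and GRCm38.p5. The aligner and the strand setting are not given in the sources used here.

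Counts were normalized by TMM and tested with edgeR 4.0.16 (quasi-likelihood, Benjamini-Hochberg adjustment over 21104 genes whose mean FPKM exceeded 1 in control or Ybx1-KO) in R 4.3.3, without covariates. limma 3.58.1 (voom, the study's own test) and DESeq2 1.42.0 were alternatives. Exon lengths were unions of GENCODE M21 exons (GRCm38), found for 47624 of 51733 symbols. RefSeq promoters matched 8 of the 9 variants. Exact permutation tests were two-sided. Plots used matplotlib 3.10.9 (Python 3.11.15).

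In simulated data with the dispersion estimated per gene, edgeR recovered 30.15% of 199 genes changed 4-fold among 20925 and 60.2% of 196 changed 8-fold among 20889. Counting intervals and the limit of 3 counts cover counting error only, since the read pairs carry no molecular identifiers. No column of values was left unused.

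The 9 variants and the lists of deposition, exchange, chaperone, signalling, other variant and cell type marker genes were chosen with earlier results of these data known. All 9 variants are named. From each other list the genes with an unadjusted p below 0.05 are named, at most 3 by smallest p, or the gene with the smallest p. H2afj, H3f3c, H2afb1, Hbb-bh1, Hbb-y, Hba-x, Egfl7, C1qa, Hist1h2aa and Hist1h4d were named after their values were seen, as was the check on nested genes chosen. A gene read as a check of the libraries is not reported here.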

Additional observations from a re-analysis of the deposited data

Results flagged for a closer look

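Ybx1-KO F held 4258 CPM on 1500 chemosensory receptor genes, where the highest control held 91.2 CPM. The same library had 59.5% of its read pairs outside genes, where the highest control had 46.7%. Of the joint counts of H1fx and its opposite-strand neighbour Gm5577, H1fx held 75.1% (Ybx1-KO D), 16.7% (E) and 25.3% (F), above the highest control at 8.26%. Of the joint counts of H2afx and Gm44335, H2afx held 89.5% (Ybx1-KO D) and 69.8% (F), above the highest control at 68.6%. What these values come from was not tested.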

How the results depend on the processing

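Of the planned repeats of a result, 194 kept its direction and side of the threshold or stayed within 1.5 times the count, 3 passed the threshold anew, 9 counts moved and 9 values changed sign. No gene was called with 6 libraries in edgeR, where 2367 had an unadjusted p below 0.05, against 212 by DESeq2 and 193 without a filter on low values, and 0 to 416 when 1 library was left out. These were 72 without control B, 106 without Ybx1-KO D, 416 without E and 46 without F. Of the variants, 1 was called without a filter, and 0 to 1 when a library was left out, H1fx each time, without E or without F. Its log2 fold change was then 2.20, 2.53 and 2.69, and with opposite-strand counts added, an alternative chosen after the data were seen, it was -0.40. The same sums turned the log2 difference of the H1f0 to H1fx ratio from -1.60 to 0.73. With libraries left out H2afz ran from -0.53 to 0.20 (without C), H3f3b from -0.91 to 0.026 (without F) and H1f0 from -0.12 (without D) to 0.53. The log2 ratio of the summed variants was 0.040 when scaled by total counts, and -0.33 to 0.17 when a library was left out (0.071 without C, 0.17 without F). That of progenitor markers was -0.096 without D and -0.018 without E, within -0.096 to 0.29, and that of neuron markers 0.076 without F, within -0.56 to 0.076. The median log2 fold change of all genes ran from -0.066 without F to 0.70 without a filter, and was 0.54 scaled by total counts. The cause of these shifts was not tested. No paired analysis was possible because the replicate numbers only name the libraries in the order of deposit and the sample titles tie no control to a Ybx1-KO library. The depth of F, 4743279 counts, limits all values that rest on it.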
